A study of Mus musculus with 24 samples.

Results

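The genes described here are the mouse solute carriers that move inorganic ions, or that use the sodium gradient to move organic solutes. They were chosen by symbol alone, as every gene of the families Slc4, Slc5, Slc8, Slc9, Slc12, Slc13, Slc20, Slc24, Slc26 and Slc34 in the deposited gene-level table, with no expression value used. The rule found 68 of 22943 genes, and 40 of the 68 reached the level needed for a test. The other 28 were below that level, and 20 of them had a mean under 0.1 RPKM in every group, a read count scaled to gene length and library depth.

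RNA was sequenced from whole uteri of C57bl/6 females at 21 days of age. The knockout animals carried Pgr-Cre and floxed Ctcf alleles (Ctcf-d/d, labelled PgreCre+;Ctcf-f/f). Pgr-Cre is active in cells that have expressed the progesterone receptor gene, and CTCF is a zinc finger protein that binds DNA and organises chromatin loops. The controls were littermates with the same floxed alleles and no Cre, here called floxed, so an effect of the Cre allele itself and one of losing Ctcf cannot be told apart. Each genotype received 0.5 mg progesterone in 0.05 ml sesame oil, or the oil alone (vehicle), 6 h before collection. There were 8 floxed and 8 knockout libraries after vehicle, and 4 of each after progesterone. The labels do not say that each library is a separate animal, so p-values measure the spread between libraries.

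The labels name 2 library batches. One, the mixed batch, had 4 libraries from each group, and the other, the vehicle-only batch, had 4 floxed and 4 knockout vehicle libraries. Estimated depth was 45 to 101 megareads in the mixed batch and 29.9 to 57.1 megareads in the vehicle-only batch. In the deposited values, the batch correction amounts to a constant added to each gene in each batch, and low genes can have RPKM below 0. Ctcf was 25.9 ± 2.36 RPKM in floxed vehicle uteri (SD, n = 8) and 11.4 ± 1.11 in knockout vehicle uteri (SD, n = 8), and the 2 ranges did not overlap. Markers of uterine epithelium, stroma and smooth muscle were all present in every group. The summed oviduct markers were highest in knockout vehicle library 12, floxed vehicle library 3 and floxed progesterone library 7 (149 to 410 RPKM). The summed squamous epithelium markers were highest in knockout vehicle library 9 (67.9 RPKM) and knockout progesterone library 8 (22.7 RPKM). Counts below are also given without these 5 libraries. The summed adipose markers varied within every group, from 2.33 to 639 RPKM in floxed vehicle, 25.5 to 721 in knockout vehicle, 114 to 479 in floxed progesterone and 55.2 to 296 in knockout progesterone libraries. By limma 0 of the 5 adipose markers were called in any comparison, and 0 had an unadjusted p under 0.05. Their part in the results was not tested. In whole tissue, fewer cells of a type and less RNA per cell cannot be told apart.

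Epithelia move fluid by moving ions. The sodium pump keeps sodium low inside the cell, and carriers in the basal and apical membranes spend that gradient to take up chloride, bicarbonate, phosphate, iodide, vitamins, sugars or citrate, or to expel protons and calcium. In the uterus such carriers set the volume, acidity and composition of the luminal fluid, which estrogen and progesterone are known to alter, and in smooth muscle the sodium-calcium exchangers return calcium to its resting level. Solute carriers also work inside the cell, where several sodium-proton exchangers set the acidity of endosomes and Golgi.

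The most abundant member was Slc24a3, a potassium-dependent sodium-calcium exchanger. It averaged 54.5 ± 4.56 RPKM in floxed vehicle uteri (SD, n = 8) and 54.3 ± 5.19 in knockout vehicle uteri (SD, n = 8). Slc4a2, the widely expressed chloride-bicarbonate exchanger, followed at 23.8 ± 1.57 RPKM in floxed vehicle uteri (SD, n = 8). Slc12a4, a potassium-chloride cotransporter, averaged 21.8 ± 2.81 RPKM in the same libraries (SD, n = 8), within a spread that overlapped Slc4a2. The phosphate transporter Slc20a2 averaged 17.9 RPKM there and the sodium-potassium-chloride cotransporter Slc12a2 17.5. These carriers of inorganic ions were all above the carriers for organic solutes.

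**Figure D1:**
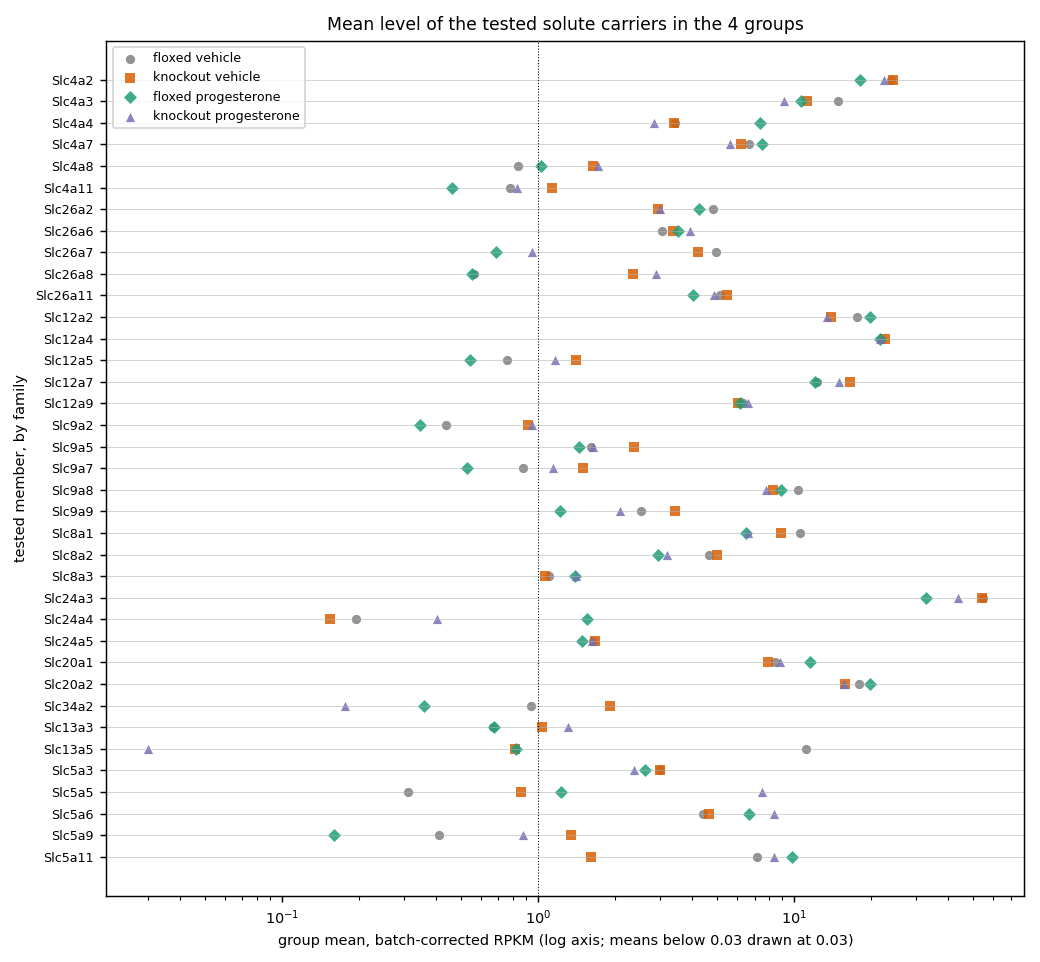
Group means of 37 tested carriers in batch-corrected RPKM on a log axis (means below 0.03 drawn at 0.03), 1 row per gene ordered by family, with 1 marker for each of the 4 groups. Slc24a3 lies furthest right, and the markers of Slc13a5, Slc5a5 and Slc24a4 lie far apart, as in floxed uteri where Slc24a4 averaged 0.19 after vehicle and 1.56 after progesterone.

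After vehicle, the question was which carriers differ between uteri with and without Ctcf. The sodium-citrate carrier Slc13a5 and the inositol carrier Slc5a11 were lower in knockout uteri, and a set of low-abundance carriers, led by Slc26a8 and Slc5a9, was higher. Differences are given as knockout less floxed on the log2(RPKM + 0.5) scale with their standard error, tested with limma, and called at an adjusted p under 0.05 over all 14284 tested genes. Of the 40 tested members, 11 were called higher and 7 lower, which is 45% of them, against 24.6% of all tested genes called in either direction (13.1% higher and 11.5% lower). Of the 11 higher calls, 6 (Slc12a5, Slc13a3, Slc26a8, Slc5a9, Slc9a2 and Slc9a7) reached the level for a test through knockout libraries alone. Slc4a8, Slc4a11 and Slc5a5, also called higher, had fewer than 4 floxed libraries at 1 RPKM or more. They reached that level only with knockout libraries added. The higher count is therefore not evidence for a direction. With genes chosen by their mean over all 24 libraries instead, an alternative added after the data were seen, 7 were higher and 7 lower of 35 tested. The median log2 difference was 0.06 over tested members and -0.01 over all tested genes. Without the 5 libraries named above, 17 members were called.

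Slc13a5 takes up citrate with sodium and lies at chr11:72241989-72267222 on the minus strand (GRCm38, GENCODE M21). Its floxed vehicle libraries had a lowest value of 6.10, a median of 10.8 and a highest of 20.4 RPKM, and its knockout vehicle libraries had -0.44, 1.20 and 1.85. The ranges did not overlap, and 5 of the knockout libraries were at 1 RPKM or more after batch correction. The difference was -3.24 ± 0.35 (adjusted p = 3.4e-07). It was -4.16 within the mixed batch and -2.33 within the vehicle-only batch, or -11.6 and -8.99 RPKM, with no overlap in either. A ratio this close to 0 moves with the batch constant, while the difference in RPKM within a batch does not.

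Slc5a11, a sodium-coupled carrier of inositol, had floxed vehicle values from 2.00 to 15.5 RPKM with a median of 6.29. Its knockout vehicle values ran from 0.83 to 3.12 with a median of 1.29. The lowest floxed libraries overlapped the highest knockout libraries, and the difference was -1.80 ± 0.34 (adjusted p = 3.81e-04). Within the mixed batch it was -1.96, without overlap, and within the vehicle-only batch -1.64, with overlap. In the vehicle-only batch alone, with fewer libraries, it was not called. Slc5a3, the other inositol carrier tested, averaged 3.0 RPKM in both genotypes after vehicle. Its difference was 0.23 within the mixed batch, with overlap, and -0.29 within the vehicle-only batch, without overlap.

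Among the anion exchangers, Slc26a2, the sulfate transporter, was lower in all knockout vehicle libraries. Its floxed values were 4.54 to 5.21 RPKM with a median of 4.82, and its knockout values were 2.34 to 3.34 with a median of 2.97. The difference was -0.64 ± 0.12 (adjusted p = 2.25e-04). Slc26a8, an anion transporter best known from sperm, went the other way. Its floxed libraries lay between 0.26 and 0.73 RPKM (median 0.59) and its knockout libraries between 1.52 and 3.50 (median 2.35), without overlap. The difference was 1.41 ± 0.13 (adjusted p = 4.29e-08), and 1.30 and 1.52 within the batches.

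Of the 5 tested Slc5 carriers 3 were called, Slc5a11 and 2 that were higher. Slc5a9, a sodium-coupled sugar transporter, had floxed vehicle values of 0.15 to 0.72 RPKM (median 0.44) and knockout values of 0.81 to 2.47 (median 1.29). The ranges did not overlap, and the difference was 1.02 ± 0.19 (adjusted p = 2.65e-04), with 1.42 within the mixed batch and 0.61 within the vehicle-only batch. Slc5a5, the sodium-iodide symporter of the thyroid, was low in both genotypes, at 0.01 to 0.50 RPKM in floxed vehicle libraries (median 0.39) and 0.58 to 1.64 in knockout vehicle libraries (median 0.77). Its difference of 0.76 ± 0.22 (adjusted p = 0.0134) came mostly from the vehicle-only batch, where it was 1.19. In the mixed batch alone it was 0.32 and was not called (adjusted p = 0.517).

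The bicarbonate carriers split. Slc4a8, which brings in sodium and bicarbonate in exchange for chloride, ran from 0.48 to 1.03 RPKM in floxed vehicle libraries (median 0.91) and from 0.95 to 2.18 in knockout vehicle libraries (median 1.56), with overlap. The difference was 0.68 ± 0.14 (adjusted p = 7.27e-04). Within the mixed batch it was 0.42 and was not called (adjusted p = 0.126). Slc4a3, a chloride-bicarbonate exchanger, was lower by -0.39. Slc4a11, known from the corneal endothelium, was higher by 0.36, but this call was lost on leaving out any of 13 single libraries (0.31 to 0.47, adjusted p up to 0.088). These were knockout vehicle libraries 4, 5, 9, 10, 11b and 12 and floxed vehicle libraries 1b, 2, 3, 4, 7, 10 and 12.

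Slc12a5, a potassium-chloride cotransporter known from neurons, was 0.61 to 0.88 RPKM in floxed vehicle libraries (median 0.74) and 1.21 to 1.52 in knockout vehicle libraries (median 1.44). The ranges did not overlap and the difference was 0.60 ± 0.08 (adjusted p = 5.08e-06). Slc12a7, another potassium-chloride cotransporter, was higher by 0.40, and Slc12a2, which loads cells with chloride, was lower by -0.33. In the Slc9 family of sodium-proton exchangers, Slc9a2, Slc9a7 and Slc9a9 were higher, by 0.58, 0.54 and 0.37. Slc9a8 of the Golgi was lower by -0.32, a call lost without any of knockout vehicle libraries 11b, 12 and 13 (adjusted p up to 0.0508). The sodium-calcium exchanger Slc8a1 was lower by -0.24 and the dicarboxylate carrier Slc13a3 higher by 0.39. In the mixed batch alone, with fewer libraries, the calls for Slc12a2, Slc13a3, Slc8a1 and Slc9a9 were not kept (adjusted p from 0.0581 to 0.105), and Slc9a2 did not reach the level for a test. Slc9a2 had 4 libraries at 1 RPKM, knockout vehicle 5 and 10 and knockout progesterone 5 and 6.

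Cell type markers moved along this comparison too. Of 10 epithelial markers, 7 were lower and 1 higher in knockout vehicle uteri, with a summed level of 397 to 620 RPKM in floxed and 290 to 429 in knockout libraries. All 3 tested gland markers were lower (36.9 to 58.1 against 18.2 to 31.5 RPKM summed, with 2 of the 5 listed under 0.1 RPKM in knockout uteri). All 5 tested leukocyte markers were higher (36.7 to 74.0 against 91.2 to 208 RPKM summed). Their part in the carrier differences was not tested.

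**Figure D2:**
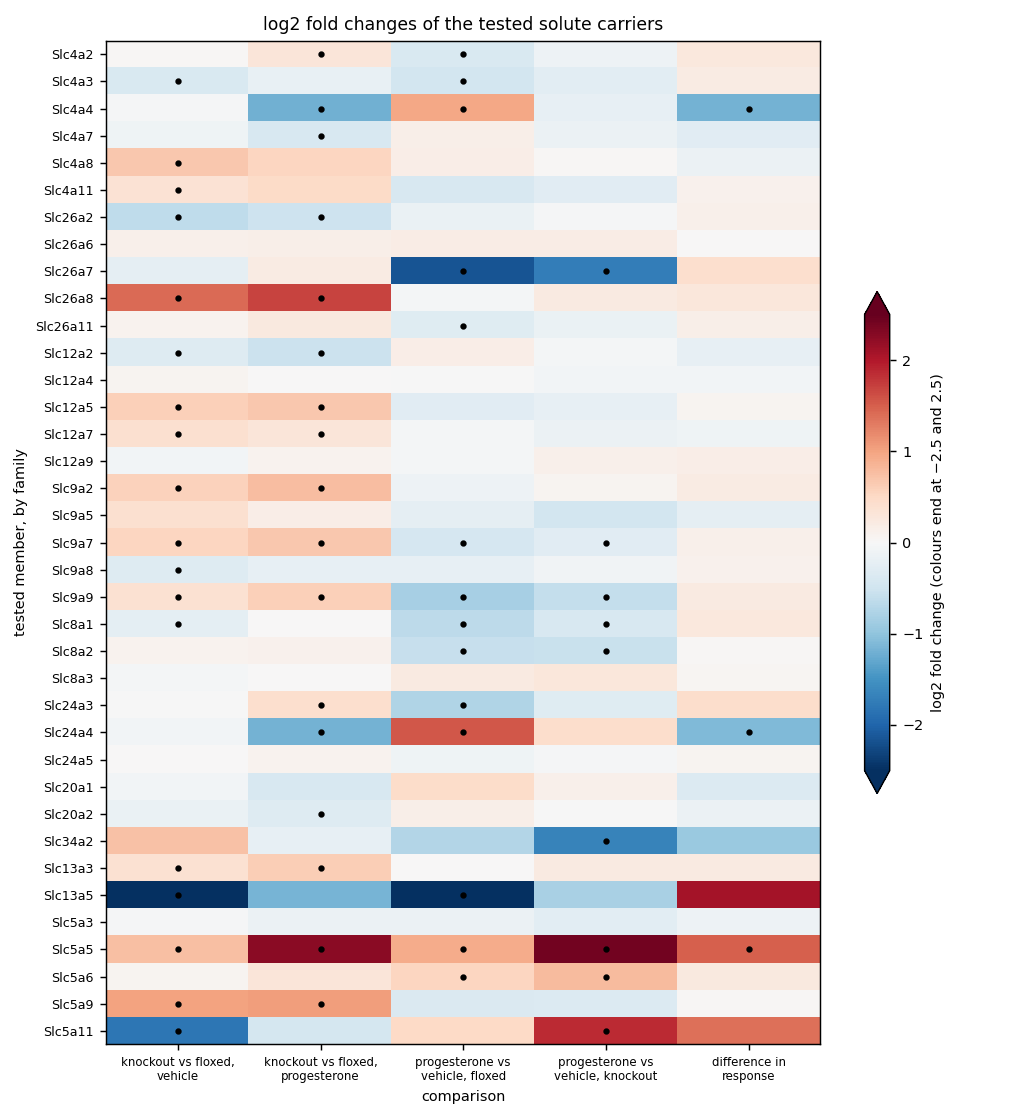
Heat map of the log2 differences of 37 tested carriers (rows) in the 5 comparisons (columns), red for higher and blue for lower, with a dot on each called value and colours ending at -2.5 and 2.5. After vehicle the darkest blue is Slc13a5 (-3.24) and the darkest red Slc26a8 (1.41).

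After progesterone, the genotypes differed in partly other carriers. The iodide symporter Slc5a5 was much higher in knockout uteri, and the sodium-bicarbonate cotransporter Slc4a4 and the calcium exchanger Slc24a4 were lower. Of 40 tested members 11 were higher and 6 lower (42.5%), against 19.4% of all tested genes (12.3% higher and 7.06% lower). The same 6 members as above passed to the test through knockout libraries alone and are all among the 11. Slc24a4 passed through the 4 floxed progesterone libraries alone, so it had to be high there. Slc5a5 had 1 RPKM or more in 4 knockout progesterone libraries, 1 knockout vehicle library and 1 floxed progesterone library. It too needed the group in which it is high. With genes chosen by their mean over all libraries, 8 were higher and 5 lower. Without the 5 libraries with oviduct or squamous markers, 13 were called. The median log2 difference was 0.10 over tested members and 0.03 over all tested genes.

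Slc5a5 (chr8:70882889-70892757, minus strand, GRCm38) had 11.8, 8.62, 4.67 and 4.81 RPKM in the 4 knockout progesterone libraries. The 4 floxed progesterone libraries had 0.87, 0.59, 0.77 and 2.66. The lowest knockout library was above the highest floxed one, and the means were 7.48 ± 3.43 and 1.23 ± 0.96 RPKM (SD, n = 4 each). The knockout mean was 6.11-fold the floxed mean, and the log2 difference was 2.25 ± 0.31 (adjusted p = 1.65e-05).

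Slc4a4 carries sodium and bicarbonate together across the basal membrane of many secretory epithelia and lies at chr5:88886818-89239653 on the plus strand. Its floxed progesterone libraries had 7.30, 6.47, 10.5 and 5.21 RPKM, and its knockout progesterone libraries 2.81, 3.22, 3.0 and 2.32. The groups did not overlap, and the knockout mean was 0.39 of the floxed mean. The difference was -1.20 ± 0.17 (adjusted p = 2.88e-05).

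Slc24a4, a potassium-dependent sodium-calcium exchanger at chr12:102128733-102267091 on the plus strand, had 1.27, 1.38, 1.39 and 2.19 RPKM in floxed progesterone libraries. The knockout progesterone libraries had 0.61, 0.51, 0.25 and 0.23, again without overlap, and the difference was -1.19 ± 0.18 (adjusted p = 3.85e-05). Leaving out any of floxed progesterone libraries 1, 2, 7 and 9 left 3 libraries at the level needed, so the gene was not tested there, nor without the 5 libraries named above. Its relative Slc24a3 went the other way. It had 40.5, 35.6, 27.1 and 27.5 RPKM in floxed progesterone libraries and 43.0, 45.2, 43.3 and 42.3 in knockout ones, a difference of 0.43 (adjusted p = 0.00849), not called without the 5 libraries (0.36, adjusted p = 0.0693).

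Several of the vehicle differences were also called after progesterone. Slc26a8 had 3.61, 3.0, 2.33 and 2.62 RPKM in knockout and 0.79, 0.50, 0.51 and 0.41 in floxed libraries, a difference of 1.68 ± 0.19 (adjusted p = 1.16e-06). Slc5a9 had 0.39, 0.91, 0.95 and 1.25 RPKM in knockout libraries and -0.08, 0.05, 0.58 and 0.09 in floxed ones, overlapping, with a difference of 1.04 ± 0.26 (adjusted p = 0.00712). Slc12a5 had 1.53, 1.26, 0.89 and 0.99 RPKM in knockout and 0.60, 0.54, 0.54 and 0.49 in floxed libraries, a difference of 0.67. All 3 passed to the test through knockout libraries alone, so these calls add no support for a direction.

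Slc9a7, an exchanger of the Golgi that also passed to the test through knockout libraries alone, had 1.25, 1.27, 1.14 and 0.89 RPKM in knockout and 0.56, 0.51, 0.49 and 0.55 in floxed progesterone libraries, a difference of 0.67 without overlap. Slc9a9, an exchanger of endosomes, had 1.69, 2.03, 2.46 and 2.15 RPKM in knockout and 0.79, 1.22, 1.51 and 1.34 in floxed libraries, a difference of 0.60 without overlap. Slc13a3, a sodium-dicarboxylate carrier, had 0.88, 1.47, 1.79 and 1.10 against 0.88, 0.47, 0.76 and 0.57 RPKM, with overlap. Its difference of 0.61 (adjusted p = 0.0118) lost its call without knockout progesterone library 6 or floxed progesterone library 2 (difference 0.49 to 0.74 on leaving out any library, adjusted p up to 0.0504).

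The other calls after progesterone follow. Slc9a2 was higher by 0.78 and the anion exchanger Slc4a2 by 0.29, and Slc12a2 was lower by -0.53. Slc26a2 had 3.15, 3.74, 3.63 and 1.42 RPKM in knockout and 4.28, 4.26, 4.32 and 4.20 in floxed libraries, a difference of -0.52. It was -0.25 without knockout progesterone library 8, the low value and one of the libraries with squamous markers. That call was lost without library 8, or without any of floxed progesterone libraries 1, 2, 7 and 9 (adjusted p up to 0.0669). The sodium-bicarbonate cotransporter Slc4a7 was lower by -0.40, lost without knockout library 8 or floxed library 7 (down to -0.29, adjusted p up to 0.0605). Slc12a7 was higher by 0.31, lost without knockout library 4, 5 or 6 or floxed library 2 or 9 (0.24 to 0.37, adjusted p up to 0.122). The phosphate transporter Slc20a2 was lower by -0.33, lost without knockout library 5 or 6 or floxed library 1, 2 or 7 (-0.39 to -0.25, adjusted p up to 0.131). Slc13a5, so far apart after vehicle, was at -0.13, -0.10, 0.15 and -0.20 RPKM in knockout and 0.50, -0.29, 1.20 and 1.88 in floxed progesterone libraries, and was not called (-1.16 ± 0.50, adjusted p = 0.108). After progesterone, 2 of 10 epithelial markers were higher and none lower in knockout uteri, 2 of 3 tested gland markers were lower and 4 of 5 leukocyte markers higher, and their part was not tested.

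**Figure D3:**
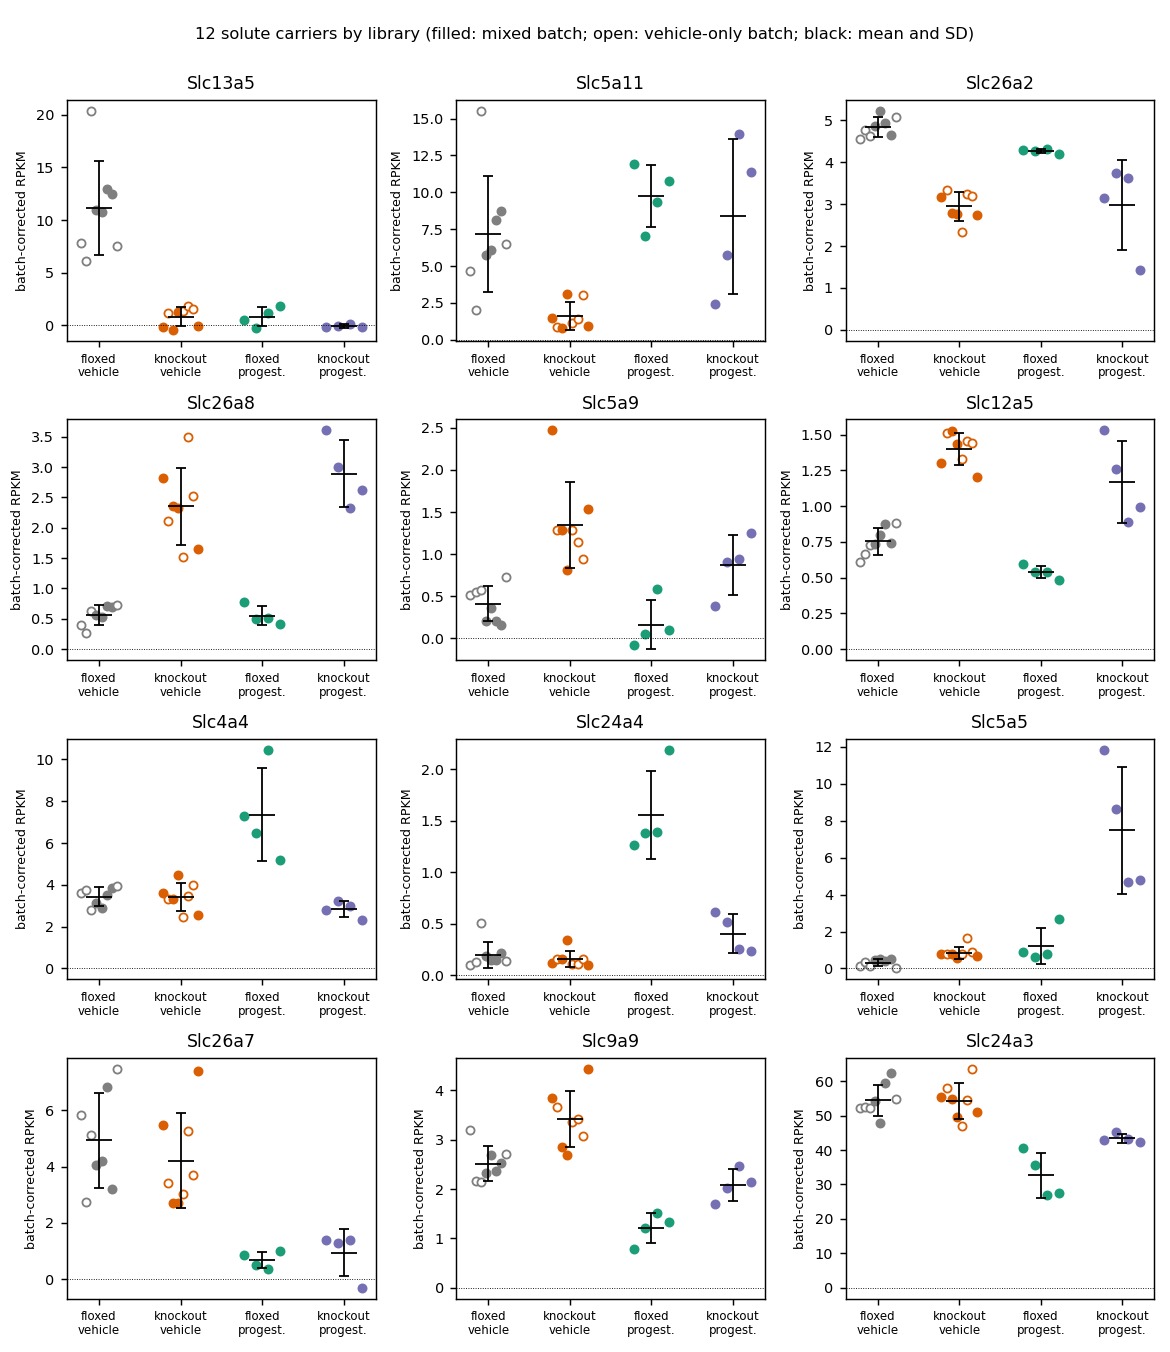
Batch-corrected RPKM of 12 carriers, 1 panel each, with 1 point per library in the 4 groups, filled for the mixed batch and open for the vehicle-only batch, and the mean and SD in black. Slc13a5 is high in the floxed vehicle libraries, Slc4a4 and Slc24a4 in the floxed progesterone libraries and Slc5a5 in the knockout progesterone libraries.

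In floxed uteri, 6 h of progesterone lowered more of these carriers than it raised. Slc24a4, Slc4a4, Slc5a5 and Slc5a6 rose, and Slc13a5 and Slc26a7 were the members with the largest falls. Of 40 tested members 4 were called higher and 11 lower (37.5%), against 23.0% of all tested genes (7.84% higher and 15.1% lower). The median log2 change was -0.15 over tested members and -0.06 over all tested genes. With quantile normalization the split was 6 higher and 8 lower. With genes chosen by their mean over all libraries, 3 were higher and 11 lower, and without the 5 libraries named above 10 were called. Slc24a4, 1 of the 4 higher, passed to the test through the floxed progesterone libraries alone. Among cell type markers, 2 of 3 mesothelium markers were lower after progesterone (44.2 to 72.8 RPKM summed after vehicle, 30.7 to 47.6 after progesterone). So were 2 of 7 stroma markers (1135 to 1468 against 833 to 1218 RPKM summed). The summed oviduct markers had a median of 28.6 RPKM after vehicle and 2.40 after progesterone, with 410 in floxed progesterone library 7. Of the 3 tested oviduct markers 0 were called. Of 10 epithelial markers 1 was higher and 1 lower (397 to 620 against 381 to 603 RPKM summed), and the part of these markers was not tested.

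Slc13a5 fell from a floxed vehicle median of 10.8 RPKM to the 4 progesterone values given above, all under 2 RPKM, without overlap (-2.90 ± 0.47, adjusted p = 1.06e-04). Slc26a7, an anion exchanger of acid-secreting and renal epithelia, ran from 2.76 to 7.47 RPKM in floxed vehicle libraries (median 4.67) and was 0.85, 0.51, 0.36 and 1.01 after progesterone. Its ranges did not overlap and the change was -2.17 ± 0.35 (adjusted p = 1.18e-04). The citrate carrier and this anion exchanger were thus 0.07 and 0.14 of their vehicle means.

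The calcium exchangers were called in both directions, though Slc24a4 was tested only through the floxed progesterone libraries and had to be high there. Slc24a4 ran from 0.10 to 0.50 RPKM in floxed vehicle libraries (median 0.14) and rose to the 4 values between 1.27 and 2.19 given above (1.56 ± 0.16, adjusted p = 4.6e-07). Slc24a3 fell by 0.75 on the log2 scale, from 47.8 to 62.4 RPKM after vehicle (median 53.3) to 27.1 to 40.5 after progesterone, without overlap (adjusted p = 1.86e-05). Slc8a1, the main plasma membrane sodium-calcium exchanger of muscle, was 9.19 to 11.2 RPKM after vehicle (median 10.9) and 6.61, 6.97, 6.42 and 5.97 after progesterone, a change of -0.66 (adjusted p = 1.89e-05). Its relative Slc8a2 changed by -0.58, and Slc8a3 was not called (0.23 ± 0.15).

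Of the bicarbonate carriers, Slc4a4 rose from 2.81 to 3.96 RPKM after vehicle (median 3.54) to between 5.21 and 10.5 after progesterone (0.97 ± 0.16, adjusted p = 1.62e-04). Slc4a3 and Slc4a2 changed by -0.46 and -0.39. The abundant Slc4a2 went from 20.8 to 26.2 RPKM after vehicle to 18.4, 17.9, 18.1 and 18.1 after progesterone, without overlap.

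Slc9a9 fell from 2.14 to 3.20 RPKM after vehicle (median 2.44) to 0.79, 1.22, 1.51 and 1.34 after progesterone (-0.82, adjusted p = 1.69e-04). Slc9a7 changed by -0.41, which was not called with quantile normalization (adjusted p = 0.142). Slc26a11, a sulfate transporter, changed by -0.31, lost without floxed progesterone library 2, 7 or 9 or floxed vehicle library 2, 3 or 4 (-0.37 to -0.28, adjusted p up to 0.106).

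The sodium-coupled Slc5 carriers that were called both rose. Slc5a5 changed by 0.92 ± 0.29 (adjusted p = 0.0246), and without floxed progesterone library 9, its highest value at 2.66 RPKM, by 0.58 (adjusted p = 0.146). In the mixed batch alone it was 0.70 (adjusted p = 0.0958). Slc5a6, which takes up biotin and pantothenate, was 3.39 to 6.74 RPKM after vehicle (median 4.05) and 8.62, 5.97, 6.04 and 5.93 after progesterone, with overlap. Its change of 0.54 ± 0.18 (adjusted p = 0.0334) was not called without floxed progesterone library 1 or floxed vehicle library 2 or 3 (0.42 to 0.68, adjusted p up to 0.124).

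In knockout uteri, progesterone raised the Slc5 carriers Slc5a5, Slc5a11 and Slc5a6 and lowered 8 members, led by Slc26a7 and Slc34a2. The 11 called members are 27.5% of those tested, against 8.67% of all tested genes (4.00% higher and 4.66% lower). The median log2 change was -0.14 over tested members and -0.02 over all tested genes. Without the 5 libraries with oviduct or squamous markers only 3 members were called, and with genes chosen by their mean 3 were higher and 7 lower. This comparison shares its knockout progesterone libraries with the one between genotypes.

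Slc5a5 rose from 0.58 to 1.64 RPKM after vehicle to between 4.67 and 11.8 after progesterone, 8.72-fold in the means and without overlap (2.41 ± 0.29, adjusted p = 1.9e-05). It reached the level for a test only with these progesterone libraries counted, so it had to be high in some of them. Slc5a11 rose from a vehicle median of 1.29 RPKM to 2.41, 5.78, 13.9 and 11.4, overlapping at the low end (1.87 ± 0.45, adjusted p = 0.0110). It was 1.78 without the 5 libraries and was not called (adjusted p = 0.114). Slc5a6 rose from 3.42 to 6.42 RPKM (median 4.36) to 7.61, 8.08, 7.03 and 10.5, without overlap (0.78 ± 0.18, adjusted p = 0.00797), and was 0.49 without the 5 libraries (adjusted p = 0.282). All 4 knockout progesterone libraries were above the vehicle median in each of Slc5a5, Slc5a11 and Slc5a6. Slc5a3, the other inositol carrier, was not called (-0.27 ± 0.18).

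Slc26a7 was 2.7 to 7.39 RPKM in knockout vehicle libraries (median 3.57) and 1.41, 1.29, 1.39 and -0.30 after progesterone, without overlap (-1.74 ± 0.35, adjusted p = 0.00297). The value below 0 is knockout progesterone library 8, and without the 5 libraries the change was -1.09 (adjusted p = 0.0466). Slc34a2, the epithelial sodium-phosphate cotransporter, was 0.98 to 4.01 RPKM after vehicle (median 1.61) and -0.09, 0.03, 0.17 and 0.60 after progesterone. It changed by -1.66 ± 0.42 (adjusted p = 0.0147), and was not called without knockout progesterone library 5 (adjusted p = 0.0509; -1.90 to -1.41 on leaving out any library).

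Slc9a9 in knockout uteri fell from 2.68 to 4.44 RPKM (median 3.38) to 1.69, 2.03, 2.46 and 2.15, without overlap (-0.59, adjusted p = 0.00878). Slc8a1 was 7.07 to 10.5 RPKM after vehicle and 7.12, 6.78, 7.09 and 5.35 after progesterone, overlapping (-0.41, adjusted p = 0.00728). Slc8a2 changed by -0.55. None of these 3 changes was called without the 5 libraries (adjusted p from 0.0563 to 0.141), where they were -0.59 for Slc9a9, -0.32 for Slc8a1 and -0.56 for Slc8a2. Slc9a7 changed by -0.29, a call lost without any of 9 single libraries (-0.33 to -0.21, adjusted p up to 0.173). Those were all 4 knockout progesterone libraries and knockout vehicle libraries 4, 9, 10, 11a and 11b. In this comparison 4 of 10 epithelial markers were higher and none lower, with a summed level of 290 to 429 RPKM after vehicle and 442 to 608 after progesterone. Of 7 stroma markers 3 were lower (1073 to 2180 against 741 to 1153 RPKM summed), and 1 of 3 tested gland markers was higher (18.2 to 31.5 against 36.3 to 47.2 RPKM summed). The part of these markers was not tested.

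**Figure D4:**
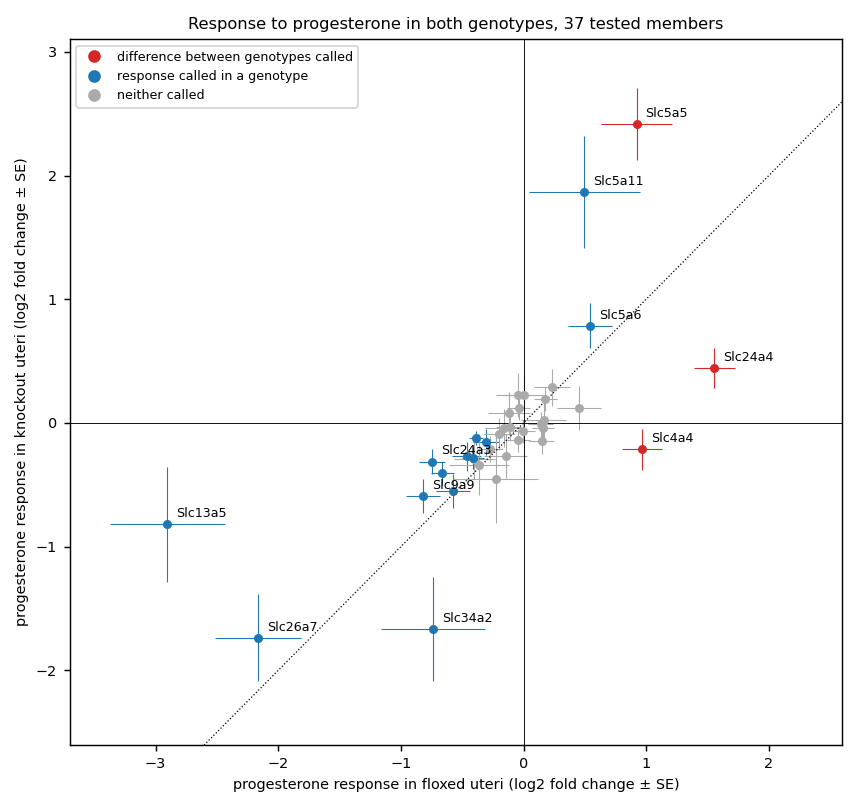
Progesterone response of 37 tested carriers in floxed uteri (x axis) and knockout uteri (y axis), as log2 fold changes with standard errors, red where the difference between genotypes was called, blue where a response was called and grey otherwise. Slc4a4 and Slc24a4 (0.97 and 1.56 in floxed uteri) lie below the dotted line of equal response, and Slc5a5 (0.92 and 2.41) lies above it.

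The difference between the 2 responses was tested directly, as the response in knockout less that in floxed uteri. Of the 40 members 3 were called (7.5%), against 2.49% of all tested genes (1.46% higher and 1.03% lower). Slc24a4, 1 of the 3, passed to the test through the floxed progesterone libraries alone. Slc5a5, another of the 3, reached the level for a test only with the knockout progesterone libraries counted, where it is high. The share is therefore not read against the background, and the Slc5a5 call is no independent support for a difference. Slc4a4 and Slc24a4 had the smaller response in knockout uteri and Slc5a5 the larger. With genes chosen by their mean 2 were called, and without the 5 libraries 1, Slc4a4.

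For Slc4a4 the difference was -1.18 ± 0.21 (adjusted p = 0.00237). Knockout vehicle libraries had 2.46 to 4.49 RPKM (median 3.41), overlapping both the floxed vehicle and the knockout progesterone libraries. Only the floxed progesterone group stood apart from the other 3 groups. It was -0.92 without the 5 libraries (adjusted p = 0.0228). For Slc24a4 the difference was -1.11 ± 0.22 (adjusted p = 0.00456), with knockout vehicle values of 0.10 to 0.34 RPKM (median 0.13). It was not tested without any one of floxed progesterone libraries 1, 2, 7 and 9, for want of libraries at 1 RPKM. It entered the test only through the 4 libraries in which it is high, so its call is no independent support for a difference.

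For Slc5a5 the difference was 1.49 ± 0.38 (adjusted p = 0.0338). Fitted on mixed-batch libraries it was 1.93 (adjusted p = 0.0224). The call was lost without any of 12 single libraries (1.25 to 1.83 on leaving out any library, adjusted p up to 0.103). These were knockout progesterone libraries 4 and 5, floxed progesterone libraries 1, 2 and 7, knockout vehicle libraries 9, 11b and 12, and floxed vehicle libraries 1b, 2, 3 and 4. Slc13a5 had the largest difference of any tested member, 2.08 ± 0.61, and was not called (adjusted p = 0.0735). Its mean after vehicle was 11.1 RPKM in floxed and 0.81 in knockout uteri, and the part of this starting level in the difference was not tested. Slc5a11 had 1.37 ± 0.59 (adjusted p = 0.278).

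Promoters are shown for the 3 members whose response differed between genotypes and for Slc13a5, the member with the largest difference after vehicle. Each is a stretch of 100 bases within the 250 upstream of a RefSeq start (GRCm38.p6), written 5′ to 3′ on the gene's strand, with matches to AGGNGGC on either strand in capitals. AGGNGGC is a short core of the sequence CTCF binds. Each stretch was placed around a match where the 250 bases held one, and next to the start otherwise.
Slc4a4, chr5:88887154-88887253, plus strand: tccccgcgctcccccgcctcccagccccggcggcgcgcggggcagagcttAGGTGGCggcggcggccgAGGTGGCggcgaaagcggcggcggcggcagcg
Slc24a4, chr12:102128627-102128726, plus strand: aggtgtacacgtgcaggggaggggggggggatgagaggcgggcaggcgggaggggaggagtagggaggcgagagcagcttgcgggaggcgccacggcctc
Slc13a5, chr11:72267312-72267411, minus strand: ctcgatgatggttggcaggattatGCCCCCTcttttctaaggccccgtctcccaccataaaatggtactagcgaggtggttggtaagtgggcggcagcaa
Slc5a5, chr8:70892758-70892857, minus strand: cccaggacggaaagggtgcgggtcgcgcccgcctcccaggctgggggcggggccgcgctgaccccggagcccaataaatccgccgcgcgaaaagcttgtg

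The Slc4a4 stretch held 2 of the 3 matches in its 250 upstream bases, and the Slc13a5 stretch held its 1 match. These 2 genes each had 2 promoters listed, and the one furthest upstream is shown. The Slc4a4 stretch lies inside the gene span given above, so it is upstream of its RefSeq start but not of the GENCODE start. The 250 upstream bases of Slc24a4 and Slc5a5 held 0. Over windows of 250 bases before to 50 after the start, 27 of the 65 promoters listed for 51 members held AGGNGGC (41.5%), against 29.4% of all 32851 promoters. ACANNNTGT, a form of the site shared by progesterone and glucocorticoid receptors, was in 0 of the 65 member promoters and in 6.85% of all. TCANNNTGA, an estrogen receptor half-site pair, was in 3 (4.62%), against 7.62% of all. All 3 motifs were searched on both strands, and a match is a description of these letters only.

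Genes that work with the carriers were read from lists of the sodium pump, channels, carbonic anhydrases, aquaporins, exchanger regulators and the WNK kinases. Over all tested genes, 24.6% were called between genotypes after vehicle and 2.49% for the difference in response. For progesterone the shares were 23.0% in floxed and 8.67% in knockout uteri. The lists are short, and their counts are not read against these shares. Of 12 tested sodium pump genes, 2 were higher and 3 lower in knockout vehicle uteri. The pump modulator Fxyd4 averaged 82.6 ± 31.7 RPKM in floxed and 7.66 ± 6.18 in knockout vehicle uteri (SD, n = 8 each), a difference of -3.85 ± 0.47, and Fxyd3 was lower by -0.96. Fxyd2, another modulator, was higher by 1.91. In floxed uteri progesterone raised 3 pump genes and lowered 1, with the pump subunit Atp1b1 up by 1.46 from 47.3 ± 14.6 to 132 ± 25.1 RPKM (SD, n = 8 and n = 4). In knockout uteri 3 rose and 0 fell, with Atp1b1 up by 1.17 and Fxyd4 up by 3.34. Atp1b1 thus rose with progesterone in both genotypes, and 0 of the 12 differed in response by limma.

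Among 11 tested channels, 4 were lower and 0 higher in knockout vehicle uteri, and 2 rose with progesterone in knockout uteri. These were Scnn1a, a subunit of the epithelial sodium channel (1.73 ± 0.25), and the potassium channel Kcnq1 (1.16 ± 0.17). Both also differed in response between genotypes, by 1.69 (adjusted p = 0.00497) and 1.01 (adjusted p = 0.0108). Scnn1a averaged 14.8 ± 3.48 RPKM in knockout and 6.40 ± 1.44 in floxed progesterone uteri (SD, n = 4 each). The Scnn1a difference was 1.74 without the 5 libraries (adjusted p = 0.0501). For Kcnq1 the difference was 0.79 in the mixed batch alone and was not called (adjusted p = 0.0783). Of the 4 lower calls after vehicle, that of Scnn1a was lost without any of 10 single libraries (-0.65 to -0.39, adjusted p up to 0.0818). Another was lost without any of 5 single libraries (adjusted p up to 0.0683).

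Of 9 tested genes of the WNK pathway, whose kinases switch the Slc12 cotransporters, 1 was higher and 2 lower in knockout vehicle uteri. Wnk2 was lower by -0.78 and Wnk4 higher by 0.63. Sgk1, a kinase that raises sodium transport, rose with progesterone by 1.83 in floxed and by 1.10 in knockout uteri, the latter 1.08 and not called without the 5 libraries (adjusted p = 0.0662). Of 12 tested genes of the carbonic anhydrase family, 2 were lower and 0 higher in knockout vehicle uteri, with Car8 at -0.71. The other call was lost without any of 11 single libraries. In the mixed batch alone that difference was 0.02 (adjusted p = 0.973). Of 4 tested aquaporins, 1 was lower, Aqp11 at -0.74. Of 9 exchanger regulators 1 was lower and 0 higher, and in the mixed batch alone that difference was -0.13 and not called (adjusted p = 0.549).

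Of the tested members 9 were called in no comparison, among them Slc5a3, Slc8a3, Slc9a5, Slc12a4, Slc12a9, Slc20a1, Slc24a5 and Slc26a6. Slc12a4 lay within 0.07 of 0 on the log2 scale in every comparison, with group means of 21.6 to 22.7 RPKM. The 28 members below the level for a test include the renal and intestinal carriers Slc12a1, Slc12a3, Slc5a2, Slc34a1 and Slc9a3, all under 0.1 RPKM in every group. With no filter on low values, some untested members were called on a low base. Slc26a9, a chloride transporter of airway and stomach, was 0.17 RPKM in floxed and 0.75 in knockout vehicle uteri (0.90 ± 0.18). Slc24a2 was 0.03 and 0.15 (0.30 ± 0.03), and the choline transporter Slc5a7 was 0.01 and 0.09 (0.22 ± 0.03). Slc12a8 fell with progesterone in floxed uteri from 0.93 to 0.53 RPKM (-0.46 ± 0.10).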

How the data were processed

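Per the labels' protocols, Trizol RNA went through a Zymo cleanup with DNase before TruSeq library preparation. The submitters' processing notes name cutadapt 2.7, TopHat, Partek and the mm10 genome. How reads were counted (annotation, strand) and how batch was corrected was not given in the sources used here. Batch-corrected RPKM values were deposited by the authors for 22943 genes in 24 libraries, and 6.66% of values were below 0. For all 13688 genes with a vehicle mean above 1 RPKM the batches' vehicle means were equal (relative tolerance 1e-04), so differences within a batch are kept while ratios near 0 are changed. Of the tested members 4 had a value below 0.

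Values below 0 were set to 0, and log2(RPKM + 0.5) was fitted with limma 3.58.1 in R 4.3.3 (trend and robust options). The fit held all 4 groups and batch, with 19 residual degrees of freedom. A gene was tested if 4 or more libraries had 1 RPKM or more (14284 genes), two-sided, with Benjamini-Hochberg adjustment at 0.05. The procedure was tested on simulated data. Log2 changes understate the changes of low genes. Depth was estimated from the step that 1 read makes in the values.

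Members and lists were chosen with earlier results of these data known. Members were described in full if called with a change of about 1.5-fold or more and a higher-group mean of 1 RPKM or more, or if among the 3 most abundant. Other called members are named with their change, and partners from the 3 smallest adjusted p per list and comparison. Alternatives were pseudocounts, filters, scaling, batch subsets, library weights, a replicate block and leaving out libraries. Gene coordinates are from GENCODE M21, and all 68 members matched. Promoters are from RefSeq on GRCm38.p6, and 51 members matched. Some members and partners enter the counts but are not reported here by name or drawn.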

Additional observations from a re-analysis of the deposited data

Results flagged for a closer look

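In 20 of the members described above, each of the 4 groups was checked for a library far from the rest, 80 groups in all. Of these, 10 had such a value, where chance gives about 1 in 20. Slc24a4 stood high in floxed progesterone library 9 (2.19 RPKM, next 1.39), floxed vehicle library 1a (0.50 RPKM, next 0.21) and knockout vehicle library 12 (0.34 RPKM, next 0.15). Slc5a5 stood high in floxed progesterone library 9 (2.66 RPKM, next 0.87) and knockout vehicle library 4 (1.64 RPKM, next 0.88). Slc5a9 stood high in knockout vehicle library 10 (2.47 RPKM, next 1.53) and Slc5a6 in floxed progesterone library 1 (8.62 RPKM, next 6.04). Slc34a2 stood high in floxed progesterone library 7 (2.24 RPKM, next -0.20), the library with the highest summed oviduct markers. Slc26a7 stood low in knockout progesterone library 8 (-0.30 RPKM, next 1.29), and Slc4a2 in knockout vehicle library 13 (22.01 RPKM, next 24.1).

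The progesterone response differed between genotypes by the tested interaction for Slc4a4 (-1.18), Slc24a4 (-1.11) and Slc5a5 (1.49), as knockout less floxed on the log2 scale.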

How the results depend on the processing

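The counts of called members were 18 and 17 between genotypes after vehicle and progesterone, 15 and 11 for progesterone in floxed and knockout uteri, and 3 for the difference in response. Leaving out single libraries gave 16 to 19, 13 to 16, 11 to 17, 9 to 12 and 1 to 5 in that order. The last was 1 without floxed progesterone library 2 or 7 and 5 without floxed vehicle library 12. With at least 5 RPKM in 4 libraries the counts were 7, 7 and 11, then 7 and 1. Fitting only the groups compared gave 7 between genotypes after progesterone and 6 for progesterone in knockout uteri. The vehicle-only batch alone gave 8 after vehicle. Library weights gave 19 for progesterone in knockout uteri and 15 for the difference. Without the 5 libraries with oviduct or squamous markers those were 3 and 1. A fit with the replicate block gave 10, 6, 14, 1 and 1. The replicate numbers were not taken as pairs, since 6 of 13 same-numbered pairs had a residual correlation over 0.1 (-0.385 to 0.639) and 2 of 18 libraries correlated best with their own number. No filter gave 23, 21, 17, 12 and 3. No called member reversed its direction under any setting run. The cause of the moved counts was not tested, except that stricter filters and fewer libraries leave fewer members or degrees of freedom. Values near 0 RPKM limit ratios for Slc13a5, Slc5a9, Slc5a5, Slc24a4 and Slc34a2.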
